A study of Mus musculus with 10 samples.

Results

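LIM homeobox genes encode transcription factors with a pair of LIM domains and a homeodomain, and this account follows 10 of them, Lhx1, Lhx2, Lhx3, Lhx4, Lhx5, Lhx6, Lhx8, Lhx9, Isl1 and Lmx1a, through lists of Polycomb group (PcG) peaks in mouse cells. The 10 were given by name and located in an annotation of mm9, out of 22350 protein-coding genes on the chromosomes with peaks. For each gene, peaks were taken that overlapped the gene body plus 10 kb on either side, called the window below. ChIP-seq was done in J1 ESCs, a mouse embryonic stem cell line kept on inactivated fibroblast feeders with serum and leukemia inhibitory factor, for Ring1b (with an antibody to RNF2, the same protein), Cbx2, Ezh2 and H3K27me3. It was done for Ring1b and H3K27me3 in NSCs, neural stem cells that were differentiated from J1 ESCs in culture and grown with EGF and FGF. Fibroblasts were depleted from the ESC cultures before cross-linking in formaldehyde, and for Ring1b the study's methods add an earlier cross-linking step with EGS that the labels do not mention. Each cell type and target had 1 library and 1 list of peaks, so there are no replicates, no difference between lists has a replicate check, and no test was made. Both cell types derive from 1 line, and neither expression nor the 4 input libraries were analysed here.

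LIM homeodomain proteins specify cell types in the embryo, above all classes of neurons, and they act together with the adaptor Ldb1, which binds their LIM domains and joins several of them in 1 complex. PcG proteins keep such developmental regulators silent in cells that do not use them. PRC2, with the methyltransferase Ezh2, places H3K27me3, and PRC1, which contains Ring1b and in its canonical form a Cbx protein such as Cbx2, binds many of the same regions, often at CpG-rich start sites.

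The lists give coordinates of peaks without any measure of their strength, and the depth behind them is unknown. A missing peak therefore means that no stretch of 1 kb passed the authors' threshold. The 6 lists held between 1033 peaks (ESC Cbx2) and 2335 peaks (ESC Ring1b), with median widths from 1400 to 2200 bp, and peaks of the smallest width of 1000 bp made up between 8.14% (ESC Ring1b) and 33.0% (ESC Cbx2) of a list. In NSCs the lists were smaller than in ESCs, 3.60 Mb against 7.90 Mb for Ring1b and 3.92 Mb against 4.91 Mb for H3K27me3, and this difference stands behind every comparison of the cell types below. As a check on the labels, the neural progenitor gene Nes had its start site in an ESC Ring1b peak and an ESC Ezh2 peak and had no peak in either NSC list. The pluripotency genes Pou5f1 and Nanog had no peak in any of the 6 lists. Sox2, which both cell types are known to express, had 1 H3K27me3 peak in each, over its whole coding sequence, and no other peak. In NSCs that peak also held its start site. Absence of a PcG peak does not show expression, and Sox2 had a peak despite its known expression, so these loci check the labels weakly.

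The closest relatives Lhx2, which acts in the cortex and the eye, and Lhx9, which acts in gonad and limb development, lay at the opposite ends of the range of NSC coverage. For that reason the 300 bases before their annotated start sites are shown, read 5′ to 3′ on the strand of the gene with each CpG in capitals, from the mm9 sequence. Those of Lhx2 lie at chr2:38194501-38194800 on the forward strand and those of Lhx9 at chr1:140745154-140745453 on the reverse strand. Both lie outside every annotated exon. They hold 27 and 17 CpGs.
Lhx2 start site: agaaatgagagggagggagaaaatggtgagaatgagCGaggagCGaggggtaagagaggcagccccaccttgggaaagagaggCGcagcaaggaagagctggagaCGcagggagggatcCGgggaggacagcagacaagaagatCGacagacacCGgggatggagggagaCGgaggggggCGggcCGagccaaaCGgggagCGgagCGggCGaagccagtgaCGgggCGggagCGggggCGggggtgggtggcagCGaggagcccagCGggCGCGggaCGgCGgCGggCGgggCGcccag
Lhx9 start site: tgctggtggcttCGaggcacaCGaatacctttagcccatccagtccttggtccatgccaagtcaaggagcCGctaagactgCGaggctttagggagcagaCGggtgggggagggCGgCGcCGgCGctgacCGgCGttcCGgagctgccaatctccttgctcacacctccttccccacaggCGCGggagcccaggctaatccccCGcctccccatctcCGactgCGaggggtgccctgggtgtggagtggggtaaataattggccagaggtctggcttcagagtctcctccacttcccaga
A further 3 stretches were chosen after the values had been seen. Isl1 had the most CpGs of the 10 before its start site (41), and its 300 bases (chr13:117099897-117100196, reverse strand) lay under peaks of Ring1b and Cbx2 but not of Ezh2 or H3K27me3 in ESCs. Lhx3 was the only member whose start site lay in no peak of any list, and its 300 bases (chr2:26063770-26064069, reverse strand) held 12 CpGs. The middle of the only NSC peak of Lhx2 (chr2:38203251-38203550, forward strand) lies in an intron and held 11 CpGs.
Isl1 start site: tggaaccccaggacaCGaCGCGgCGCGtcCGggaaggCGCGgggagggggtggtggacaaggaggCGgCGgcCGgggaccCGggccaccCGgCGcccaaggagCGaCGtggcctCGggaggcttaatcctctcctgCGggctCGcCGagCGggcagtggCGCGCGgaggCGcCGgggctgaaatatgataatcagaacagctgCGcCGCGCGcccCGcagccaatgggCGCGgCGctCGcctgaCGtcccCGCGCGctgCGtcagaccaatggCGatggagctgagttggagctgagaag
Lhx3 start site: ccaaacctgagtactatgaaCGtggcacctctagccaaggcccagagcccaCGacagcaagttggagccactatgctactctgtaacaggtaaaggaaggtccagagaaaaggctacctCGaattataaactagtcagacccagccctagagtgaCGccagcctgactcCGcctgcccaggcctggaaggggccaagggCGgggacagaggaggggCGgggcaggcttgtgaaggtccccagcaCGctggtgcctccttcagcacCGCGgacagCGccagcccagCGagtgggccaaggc
Lhx2 centre of the NSC Ring1b peak: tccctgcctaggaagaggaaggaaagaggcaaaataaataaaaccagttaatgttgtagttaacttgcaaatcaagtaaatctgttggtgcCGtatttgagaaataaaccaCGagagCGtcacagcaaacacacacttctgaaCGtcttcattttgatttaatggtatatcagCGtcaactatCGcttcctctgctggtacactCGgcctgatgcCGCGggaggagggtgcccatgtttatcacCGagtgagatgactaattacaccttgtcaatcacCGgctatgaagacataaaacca

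In ESCs, nearly all LIM homeobox genes carried PcG peaks over their start sites. The lists come from whole cultures, so that binding in fewer cells and weaker binding in every cell cannot be told apart. Ring1b peaks held the start sites of 9 of the 10 genes, all but Lhx3, against 7.03% of all protein-coding genes. Cbx2 peaks held 7 (1.15% of all genes), those of Lhx1, Lhx4, Lhx5, Lhx6, Lhx8, Lhx9 and Isl1. Ezh2 peaks also held 7 (2.56% of all genes), with Lmx1a in place of Isl1. H3K27me3 peaks held the start sites of 7 (4.31% of all genes), those of Lhx2, Lhx4, Lhx5, Lhx6, Lhx8, Lhx9 and Lmx1a. Start sites in peaks of all 4 ESC lists were thus 5, those of Lhx4, Lhx5, Lhx6, Lhx8 and Lhx9, compared with 0.752% of all genes. With the start of any annotated transcript, the counts were 10 for Ring1b, 9 for Cbx2, 9 for Ezh2 and 8 for H3K27me3. The share of all genes counted in this way was not computed.

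Counted over the window, the lists came closer to each other. All 10 genes had an ESC Ring1b peak (11.5% of all genes) and an ESC Cbx2 peak (3.09%). An Ezh2 peak (5.28% of all genes) and an H3K27me3 peak (9.97%) lay in the windows of 9, all but Isl1. Peaks of all 4 ESC lists lay in the windows of the same 9 genes, compared with 1.98% of all genes. Windows differ in length with the gene, from 27.4 kb at Lhx1 to 180 kb at Lmx1a, and a longer window can hold more peaks.

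**Figure D1:**
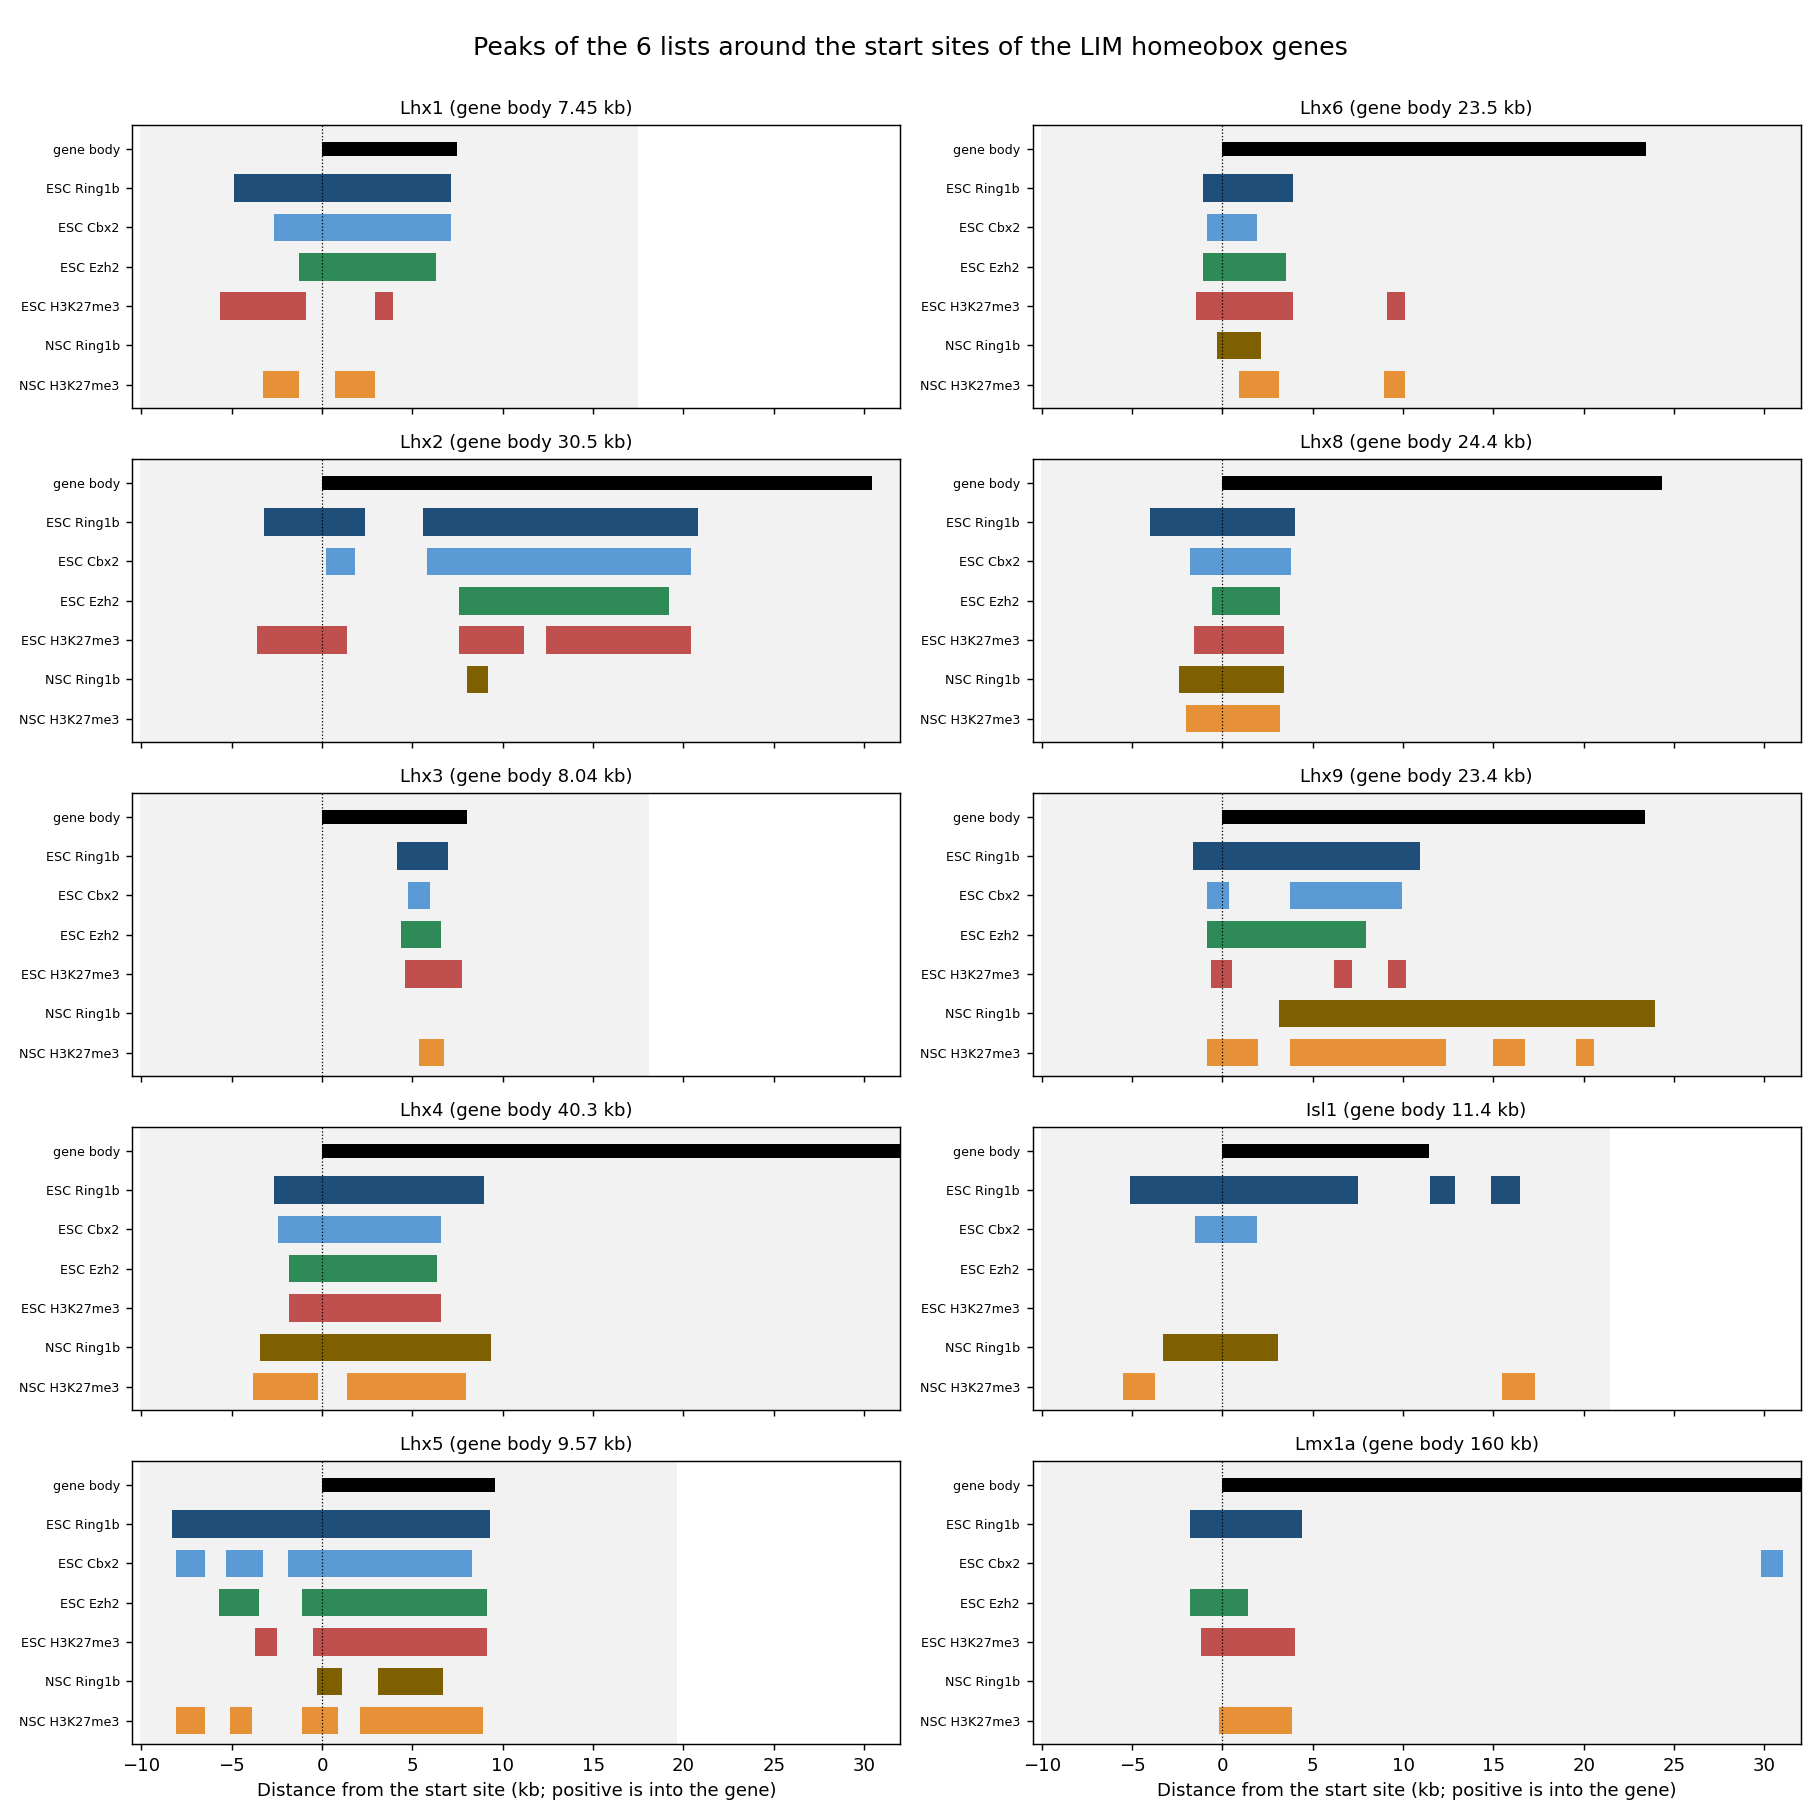
Peaks of the 6 lists (coloured bars, 1 row per list) by distance in kb from the annotated start site (dotted line) of each LIM homeobox gene, drawn in the direction of transcription, with the gene body in black and the window shaded. ESC Ring1b bars cross the dotted line in 9 of 10 panels, the NSC Ring1b bar of Lhx9 lies wholly inside and beyond the start site, and 1 NSC H3K27me3 peak of Lmx1a at 112431 bp lies outside the range drawn.

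The peaks over these start sites had larger median widths than those over the start sites of all genes, members included, in each of the 6 lists. ESC Ring1b peaks that held a member's start site had a median width of 11600 bp (5000 to 17600 bp), compared with 2600 bp for all genes with a start site in such a peak. The medians were 7600 against 2200 bp for Ezh2, 5200 against 2200 bp for H3K27me3 and 5600 against 4300 bp for Cbx2, each over 7 members. In NSCs the medians were 5800 against 2000 bp for Ring1b (5 members) and 3400 against 2800 bp for H3K27me3 (4 members). The gap was thus small for NSC H3K27me3 and ESC Cbx2. In every list but ESC Ring1b and ESC Ezh2, the narrowest of the members' peaks was narrower than the median of all genes. Over the 10 windows together, ESC Ring1b peaks covered 112 kb, Cbx2 70.4 kb, H3K27me3 64.6 kb and Ezh2 62.4 kb.

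The other ESC peaks lay almost wholly inside the Ring1b peaks. Of the length under Ezh2 peaks in the 10 windows, 100% was also under Ring1b, compared with 93.7% of the whole Ezh2 list. For Cbx2 the share was 98.3% against 76.6%, and for H3K27me3 94.7% against 74.1%. The converse shares were lower, as Ring1b peaks reached further. Ring1b is also the 1 target for which the study's methods give the EGS step and the sample titles an input of its own, and the wider Ring1b peaks cannot be told apart from these differences in handling. Of the length under Ring1b in the windows, 61.7% was under Cbx2 (25.1% in the whole list), 55.6% under Ezh2 (33.8%) and 54.5% under H3K27me3 (46.0%). The length under all 4 lists at once was 10.4 kb at Lhx2, 9.0 kb at Lhx5 and 8.2 kb at Lhx4, and it was 0 at Isl1 and at Lmx1a.

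**Figure D2:**
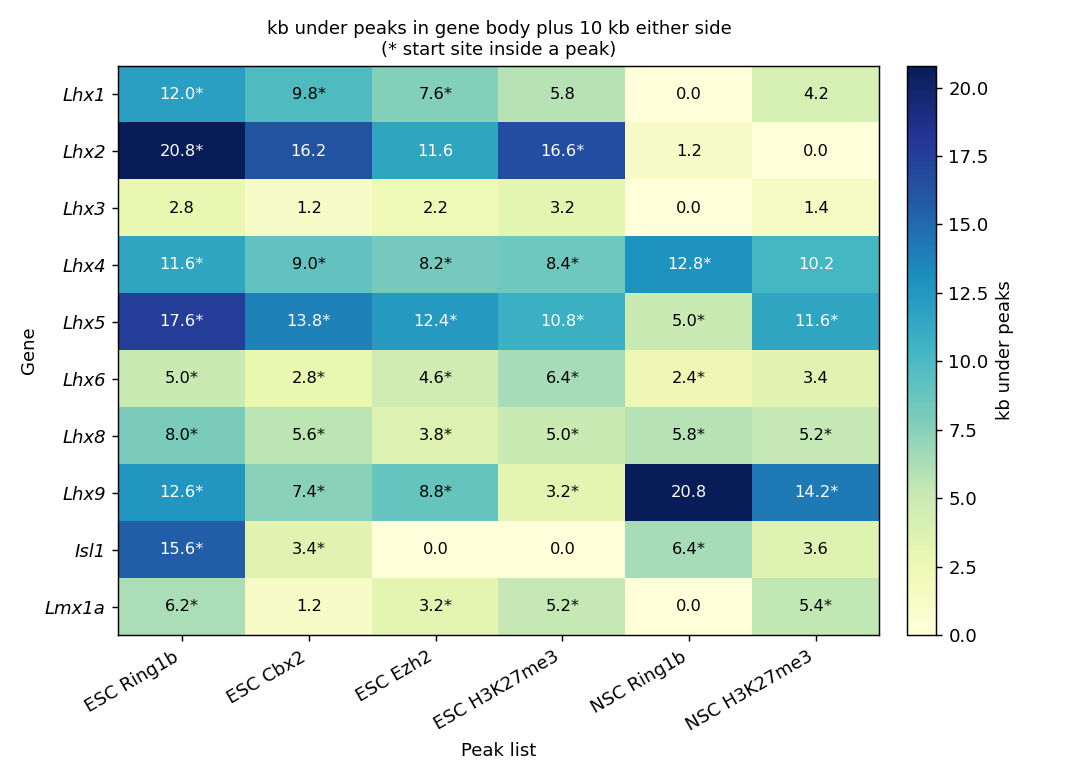
Length under peaks (kb, shading and numbers) in the window of each LIM homeobox gene (rows) for each of the 6 lists (columns), with an asterisk where the annotated start site lay inside a peak. Lhx2 has the most kb under ESC Ring1b (20.8) and Lhx9 the most under NSC Ring1b (20.8), and the entries of Isl1 are 0 for ESC Ezh2 and ESC H3K27me3.

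Lhx1 and Lhx5 are close relatives that act in head and forebrain development and in Purkinje cells of the cerebellum, and Lhx1 also in the kidney. Lhx5 (chr5:120881895-120891466, forward strand) lay from end to end of its coding sequence in an ESC Ring1b peak of 17600 bp (chr5:120873601-120891200). Counting it, 31 of the 2335 ESC Ring1b peaks were as wide or wider. Its window had 17.6 kb under Ring1b, 13.8 kb under Cbx2, 12.4 kb under Ezh2 and 10.8 kb under H3K27me3 in ESCs, and 5.0 kb under Ring1b and 11.6 kb under H3K27me3 in NSCs. The start site was inside a peak of all 6 lists. NSC Ring1b came as 2 peaks of 1400 and 3600 bp, where the median of that list was 1400 bp.

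Lhx1 (chr11:84331479-84338923, reverse strand) had its whole coding sequence under single ESC peaks of Ring1b (12.0 kb), Cbx2 (9.8 kb) and Ezh2 (7.6 kb). In NSCs its window had no Ring1b peak, and the nearest was 670 kb from the start site. H3K27me3 at Lhx1 lay to either side of the start site in both cell types. The ESC peaks of 4800 and 1000 bp ended 878 bp upstream of the start site and began 2923 bp downstream of it, and the NSC peaks of 2000 and 2200 bp lay to either side in the same way, the nearer one from 723 bp downstream. The start of a divergent long noncoding RNA gene, 1500016L03Rik, lies 239 bp from that of Lhx1 and was inside the same ESC Ring1b, Cbx2 and Ezh2 peaks, so that peaks there cannot be assigned to 1 of the genes. Lhx1 and Lhx5 were therefore alike in the 3 protein lists of ESCs and differed in NSC Ring1b. They also differed in H3K27me3, whose peaks held the annotated start site of Lhx5, but not that of Lhx1, in both cell types.

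Lhx2 (chr2:38194801-38225253, forward strand) had more kb under ESC Ring1b (20.8 kb), Cbx2 (16.2 kb) and H3K27me3 (16.6 kb) than any other of the 10, and 11.6 kb under Ezh2, where Lhx5 had 12.4 kb. As a share of the window, Lhx5 (59.5% under any ESC list), Isl1 (49.7%) and Lhx1 (46.6%) came before Lhx2 (42.0%). Its Ring1b peaks measured 5600 bp at the annotated start site and 15200 bp further in, from 5600 to 20799 bp downstream. The inner peak holds the start of transcript Lhx2-001, 12027 bp downstream, and most of the length under Ezh2, Cbx2 and H3K27me3. In NSCs almost nothing was left, a Ring1b peak of 1200 bp in an intron (chr2:38202801-38204000), whose middle is printed above, and no H3K27me3 peak, the nearest being 117 kb from the start site. NSC peaks of either target covered 2.38% of the window, far below the share under ESC peaks. When peaks had to be at least 2 kb wide, the Lhx2 window had no NSC peak.

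Lhx9 (chr1:140721763-140745153, reverse strand) went the other way. Its window had 12.6 kb under ESC Ring1b, 7.4 kb under Cbx2, 8.8 kb under Ezh2 and 3.2 kb under H3K27me3, and in NSCs 20.8 kb under Ring1b and 14.2 kb under H3K27me3. The NSC Ring1b peak was a single one of 20800 bp (chr1:140721201-140742000), and, counting it, 9 of the 1389 peaks of its list were as wide or wider. It began 3153 bp downstream of the annotated start site, ran past the end of the gene and covered 97.8% of the coding sequence, compared with 59.8% under the ESC peak. The annotated start site thus left the Ring1b peak while the gene gained coverage, and the starts of 2 inner transcripts, Lhx9-003 and Lhx9-005 at 6119 and 6147 bp, stayed within it. H3K27me3 peaks held the annotated start site in both cell types. Of the NSC length, 13.0 kb of Ring1b and 11.0 kb of H3K27me3 lay where ESCs had no peak of that target. The 3 ESC H3K27me3 peaks were 1000, 1000 and 1200 bp wide, so that none was left when peaks had to be at least 2 kb wide.

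Lhx3 and Lhx4 act in pituitary development and in motor neurons. Lhx4 (chr1:157548827-157589157, reverse strand) had nearly the same peaks in both cell types. Around its start site 11.6 kb lay under ESC Ring1b, 9.0 kb under Cbx2, 8.2 kb under Ezh2 and 8.4 kb under H3K27me3, and in NSCs 12.8 kb under Ring1b and 10.2 kb under H3K27me3. The NSC Ring1b peak contained the whole ESC Ring1b peak. NSC H3K27me3 came as 2 peaks that ended 244 bp upstream and began 1357 bp downstream of the start site, which is why Lhx4 does not count among the start sites in NSC H3K27me3 peaks. All of these peaks lay at the 5′ end, and the Ring1b peaks covered only 6.5% of the coding sequence.

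Lhx3 (chr2:26055732-26063769, reverse strand) had the shortest coverage by Ring1b, 2.8 kb in ESCs, with 1.2 kb under Cbx2, 2.2 kb under Ezh2 and 3.2 kb under H3K27me3. In NSCs it had 1.4 kb under H3K27me3 and no Ring1b peak, the nearest being 599 kb away. All 4 ESC peaks lay inside the gene and began between 4169 and 4769 bp downstream of the annotated start site. They held the starts of 2 noncoding transcripts of the gene (4808 and 5383 bp downstream) but of neither coding transcript (0 and 1674 bp). The stretch before the annotated start site, printed above, was therefore free of peaks in all 6 lists.

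Lhx6 and Lhx8 act in the ventral forebrain, Lhx6 in cortical interneurons and Lhx8 in cholinergic neurons. Lhx8 (chr3:153969260-153993615, reverse strand) changed little between the cell types. A single peak of each list held its start site, with 8.0, 5.6, 3.8 and 5.0 kb under ESC Ring1b, Cbx2, Ezh2 and H3K27me3 and 5.8 and 5.2 kb under NSC Ring1b and H3K27me3. The NSC peaks lay within the ESC peaks of the same target over 100% of their length for Ring1b and 92.3% for H3K27me3. It had the fewest CpGs of the 10 before its start site, 9.

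Lhx6 (chr2:35937470-35960928, reverse strand) had 5.0 kb under ESC Ring1b, 2.8 kb under Cbx2, 4.6 kb under Ezh2 and 6.4 kb under H3K27me3. In NSCs 2.4 kb lay under Ring1b and 3.4 kb under H3K27me3. Its start site stayed inside a Ring1b peak, while the nearest NSC H3K27me3 peak began 928 bp downstream and held the starts of other coding transcripts of the gene at 1348 bp. An intronic H3K27me3 peak was present in both lists, from 9128 bp downstream and 1000 bp wide in ESCs and from 8928 bp downstream and 1200 bp wide in NSCs.

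Isl1 (chr13:117088478-117099896, reverse strand), a factor of motor neurons, cardiac progenitors and pancreatic islets, differed from the other 9 in lacking any ESC Ezh2 or H3K27me3 peak in its window. The nearest such peaks lay 601 kb and 715 kb from its start site. It nonetheless had 15.6 kb under ESC Ring1b in 3 peaks and 3.4 kb under Cbx2. The widest Ring1b peak, of 12600 bp, lay over the start site (chr13:117092401-117105000). The share of all genes with an ESC Ring1b peak but no Ezh2 or H3K27me3 peak was not computed. In NSCs a Ring1b peak of 6400 bp held the start site, and 2 H3K27me3 peaks of 1800 bp lay 3705 bp upstream of the start site and 15496 bp downstream of it. The NSC Ring1b and H3K27me3 peaks shared no base. The 300 bases before the start site, printed above, were 72.3% GC with 41 CpGs, while the wide ESC Ring1b peak as a whole had the lowest GC content (46.2%) and the lowest ratio of observed to expected CpGs (0.438) among the widest ESC Ring1b peaks of the 10 genes.

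Lmx1a (chr1:169619370-169778872, forward strand), a factor of midbrain dopaminergic neurons and the roof plate, had 6.2 kb under ESC Ring1b, 3.2 kb under Ezh2 and 5.2 kb under H3K27me3 around its start site. Its only Cbx2 peak, of 1200 bp, lay in an intron 29.8 kb downstream and not under Ring1b. In NSCs H3K27me3 had 5.4 kb in 2 peaks. Of these, the 4.0 kb peak at the start site lay under the ESC peak of that mark. The other, of 1400 bp, lay in an intron where ESCs had no H3K27me3 peak. Ring1b had no NSC peak in the window, the nearest lying 5212 kb from the start site. Lmx1a and Isl1 were thus opposite in kind, Lmx1a with H3K27me3 at its start site and no Ring1b in NSCs, Isl1 with Ring1b at its start site and H3K27me3 only beyond it.

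Between ESCs and NSCs the members lost Ring1b coverage and changed less in H3K27me3. Ring1b peaks covered 112 kb of the 10 windows in ESCs and 54.4 kb in NSCs, and H3K27me3 peaks 64.6 kb and 59.2 kb. The whole lists shrank in the same direction, from 7.90 to 3.60 Mb for Ring1b and from 4.91 to 3.92 Mb for H3K27me3. Over the 10 windows together, the fall in Ring1b was close in proportion to that of its list. Ring1b coverage was lower in NSCs at 8 of 10 genes and higher at Lhx4 and Lhx9. H3K27me3 coverage was lower in NSCs at Lhx1, Lhx2, Lhx3 and Lhx6 and higher at the other 6, though by only 0.2 kb at Lhx8 and at Lmx1a. The sign of the H3K27me3 difference turned under other settings at Lhx1, Lhx5, Lhx8 and Lmx1a, and no sign of a Ring1b difference did. The Isl1 gain of 3.6 kb in H3K27me3 was 0 with peaks of at least 2 kb and in the gene body alone, and that of Lhx4, 1.8 kb, was 0.043 kb in the gene body alone. Without Lhx9, whose gain was the largest in both, Ring1b peaks covered 99.6 kb in ESCs and 33.6 kb in NSCs and H3K27me3 peaks 61.4 kb and 45.0 kb. The fall in Ring1b was then larger in proportion than that of the whole list.

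In NSCs, Ring1b peaks held 5 of the 10 start sites, those of Lhx4, Lhx5, Lhx6, Lhx8 and Isl1 (1.74% of all genes), and H3K27me3 peaks 4, those of Lhx5, Lhx8, Lhx9 and Lmx1a (1.77% of all genes). An NSC Ring1b peak lay in the windows of 7 (4.64% of all genes), all but Lhx1, Lhx3 and Lmx1a. An NSC H3K27me3 peak lay in the windows of 9, all but Lhx2 (4.70% of all genes). Both targets had a peak in 6 windows (1.85% of all genes), and each of the 10 had a peak of at least 1 of them (7.49% of all genes). The H3K27me3 count is sensitive to where a start is placed, since it was 7 when peaks within 1 kb counted and 7 when the start of any annotated transcript counted.

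Of the 9 genes with their start site in an ESC Ring1b peak, 5 kept it in an NSC Ring1b peak, compared with 16.7% of all genes with such a start site. The 4 that did not were Lhx1, Lhx2, Lhx9 and Lmx1a. Wide ESC peaks were kept more often in general. Among all genes, members included, with the start site in an ESC Ring1b peak of at least 5000 bp, 41.9% (138 of 329) kept it. That limit is the width of the narrowest such peak among the members, and widths above it were not matched. The members' 5 of 9 stood closer to this share than to 16.7%. This comparison was added after the members' widths had been seen. For H3K27me3, 4 of 7 kept their start site in a peak, against 25.4% of all such genes, and Lhx2, Lhx4 and Lhx6 did not. Counted by window, 7 of 10 genes kept a Ring1b peak (22.9% of all such genes) and 8 of 9 an H3K27me3 peak (29.6%). The H3K27me3 and window shares were not matched for peak width. The members' ESC H3K27me3 peaks over start sites were also wider (median 5200 against 2200 bp). Whether the members kept more than genes with equally wide peaks was not tested.

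The NSC peaks of the members mostly lay where ESCs already had peaks. Of the NSC Ring1b length in the windows, 73.9% was under ESC Ring1b peaks (45.9% in the whole list), and nearly all the rest was the new stretch at Lhx9. Of the ESC Ring1b length, 35.8% was still under an NSC peak (20.9% in the whole list). For H3K27me3 the shares were 56.8% of NSC length (34.7%) and 52.0% of ESC length (27.7%). Within NSCs, 59.6% of the Ring1b length in the windows was also under H3K27me3 (40.1% in the whole list), and 54.7% of the H3K27me3 length was under Ring1b (36.9%). At Lhx1, Lhx3 and Lmx1a H3K27me3 had peaks in NSCs without Ring1b, and at Lhx2 Ring1b had its 1 narrow peak without H3K27me3.

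**Figure D3:**
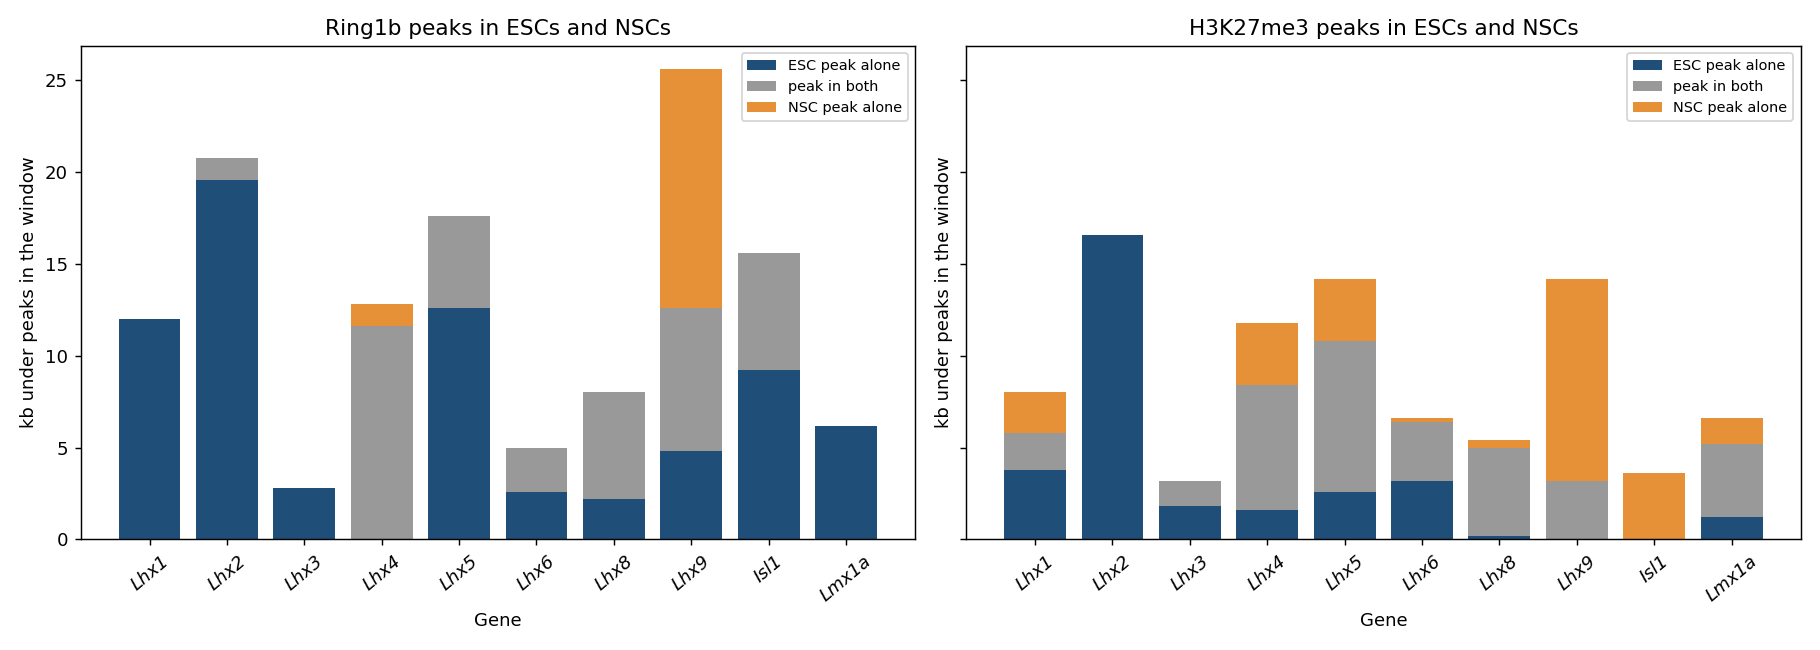
Length (kb) under Ring1b peaks (left) and H3K27me3 peaks (right) in the window of each LIM homeobox gene, divided into length under an ESC peak alone, under peaks of both cell types and under an NSC peak alone, with 1 library per cell type and so no error bars. Lhx9 carries 13.0 kb of Ring1b and 11.0 kb of H3K27me3 under NSC peaks alone, while Lhx2 has 19.6 kb and 16.6 kb under ESC peaks alone.

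The annotated start sites of the members had more CpGs before them in the median than those of all genes, a property that the choice of genes did not use. The 300 bases before them had a median GC content of 65.2%, 17.5 CpGs and an observed to expected CpG ratio of 0.726. Over 22344 protein-coding genes the medians were 53.3%, 9 CpGs and 0.478. The members ranged from 9 CpGs at Lhx8 to 41 at Isl1, and Lmx1a (32), Lhx1 (31) and Lhx2 (27) came next to Isl1. As many CpGs or more were found at 2.97% of all genes for Isl1 and at up to 13.6% for these 3. For the other 6 members the share was 30.1% to 52.3%, so their annotated start sites do not stand out by this count. Inner starts of these genes went both ways. Coding starts of Lhx3 (1674 bp downstream) and Lhx8 (2017 bp) had 26 and 25 CpGs (15.1% and 16.6% of all genes). Another inner coding start of Lhx8 (592 bp) had 15 (37.1%), and the inner coding starts of Lhx9 had 3 to 5. Lmx1a, Lhx1 and Lhx2 are among the 4 genes whose annotated start site left the Ring1b peak in NSCs, while Isl1 itself stayed. Lhx9, the remaining 1 of the 4, had 17 CpGs before its annotated start site. Whether the number of CpGs goes with leaving the peak was not tested. The widest ESC Ring1b peaks of the members had GC contents from 46.2% (Isl1) to 58.0% (Lhx3), below the median of the whole list (58.3%). Their ratios of observed to expected CpGs were from 0.438 to 0.627 (0.642 in the whole list). These peaks were 2800 to 17600 bp wide, against a median of 2200 bp in the list. Composition was not compared at equal width, so the difference cannot be told apart from one of width.

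**Figure D4:**
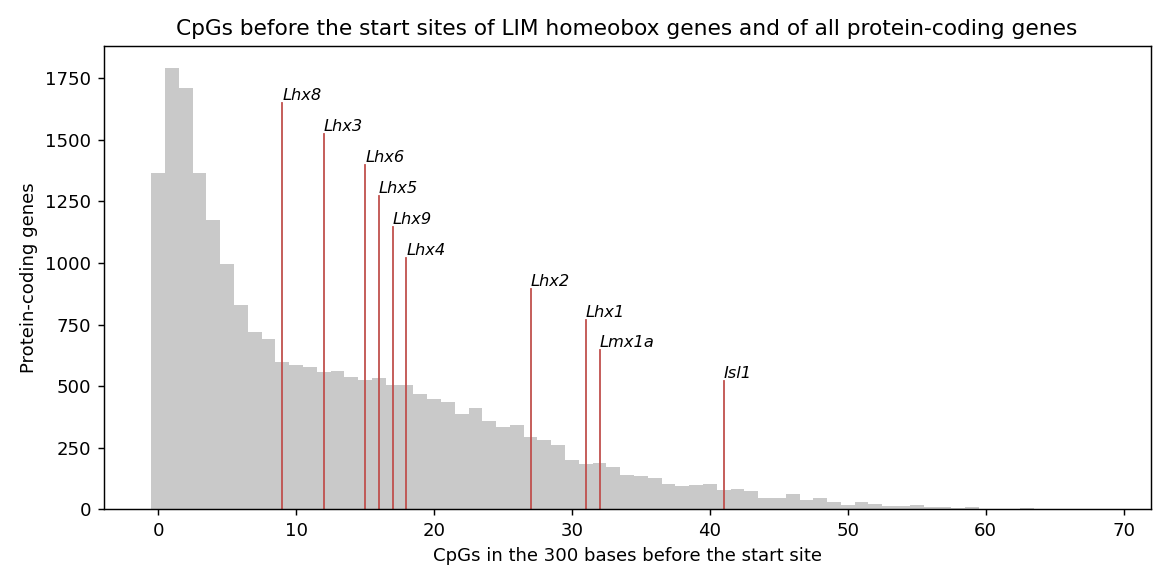
Number of CpGs in the 300 bases before the annotated start site, on the horizontal axis, for 22344 protein-coding genes (grey bars, genes per value) and for the LIM homeobox genes (red lines, whose height has no meaning). The members lie between 9 CpGs (Lhx8) and 41 (Isl1), at or above the median of all genes, 9.

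The other LIM homeobox genes also carried PcG peaks. Isl2, the relative of Isl1 in motor neurons, and Lmx1b, the relative of Lmx1a that acts in limb patterning and serotonergic neurons, had peaks of all 6 lists in their windows. Lmx1b had its start site inside a peak of each list, with 21.4 kb under Ring1b and 24.8 kb under H3K27me3 in ESCs and 11.6 kb and 12.6 kb in NSCs. It thus kept a Ring1b peak that Lmx1a lost from the list. A divergent long noncoding RNA gene, C130021I20Rik, starts 682 bp from Lmx1b, inside peaks of all 6 lists. Peaks there cannot be assigned to 1 of the genes. Isl2 had 8.6 kb under Ring1b and 8.4 kb under H3K27me3 in ESCs, where Isl1 had no H3K27me3 peak, and 6.4 kb and 1.6 kb in NSCs. The annotated start site of Isl2 belongs to a noncoding transcript and lay in no peak. That of its coding transcript, 2476 bp downstream, lay in peaks of every list except NSC H3K27me3. The start of a noncoding gene on the other strand, Gm17226, lay in peaks of the same lists.

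LIM-only proteins have LIM domains without a homeodomain and compete for the same adaptor. Of the 4 genes, Lmo1 and Lmo4 had a start site in an ESC Ring1b peak (7.03% of all genes). That of Lmo1 also lay in peaks of Ezh2 (2.56%) and H3K27me3 (4.31%). The window of Lmo4, like that of Isl1, had no ESC peak of either. Lmo2, a regulator of blood formation, had peaks of these 3 lists only inside the gene, from 10858 bp downstream of its annotated start site, and the Ring1b peak held 8 of its 10 transcript starts (6 of 10 for Ezh2 and for H3K27me3). Counted by any transcript, 3 of the 4 LIM-only genes had a start in an ESC Ring1b peak. The share of all genes by any transcript was not computed, and Lmo2 enters with 10 starts, so this count has no measure beside it. None of the 4 had a Cbx2 peak or a peak in either NSC list in its window, and since few of all genes had one, 0 of 4 does not set them apart. The cofactors Ldb1, Ldb2, Ssbp2, Ssbp3, Ssbp4 and Rlim, which bind LIM domains, stabilise these complexes or mark them for degradation, had 0 of 6 start sites in a peak of any list. Over all genes 8.93% had one, so that 0 of 6 does not set the cofactors apart. Their windows held 3 peaks in all, of ESC Ring1b at Ssbp2 and Ssbp4 and of ESC Cbx2 at Ldb2.

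**Figure D5:**
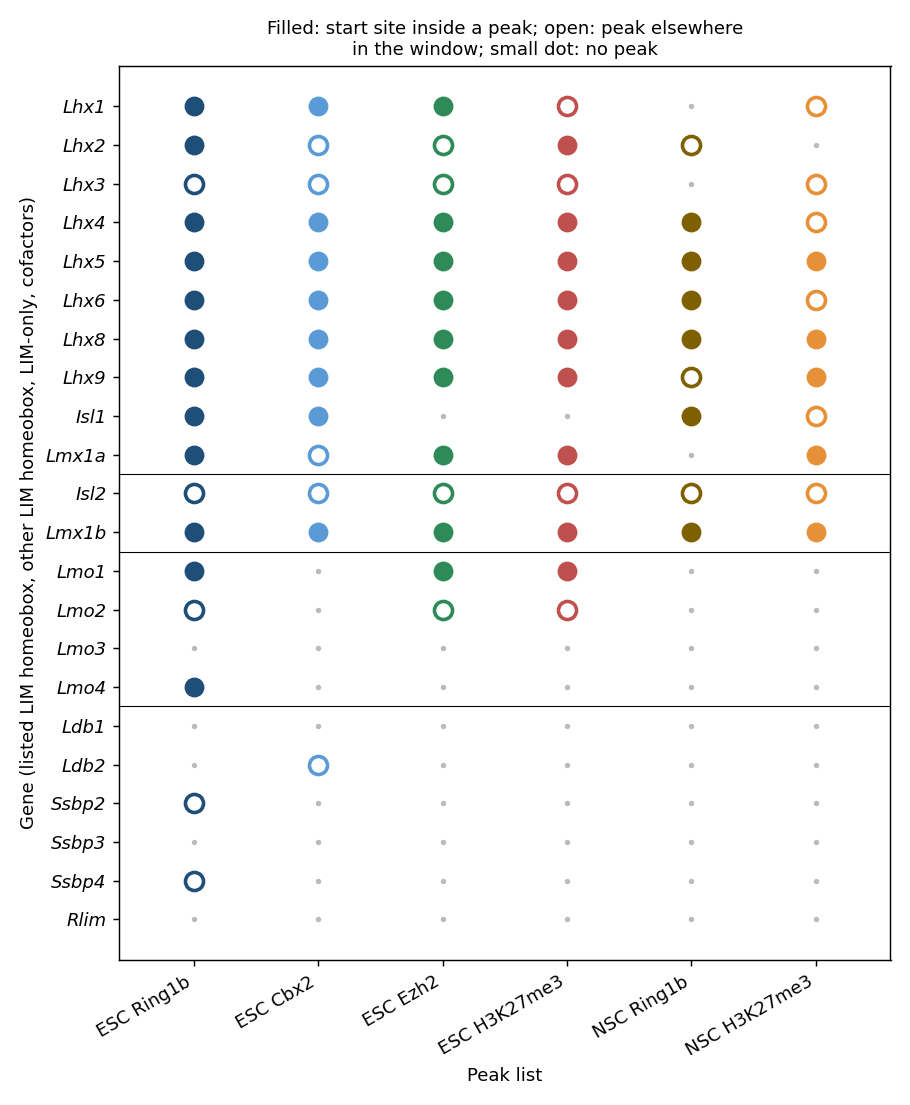
Peaks at the 10 listed LIM homeobox genes, at Isl2 and Lmx1b, at the 4 LIM-only genes and at 6 cofactor genes (rows) in the 6 lists (columns), with filled circles where the annotated start site lay inside a peak, open circles where a peak lay elsewhere in the window and dots where there was none. Circles fill most of the upper 12 rows, and the LIM-only and cofactor rows have none in the NSC columns.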

How the data were processed

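The authors deposited 1 list of peak coordinates per ChIP library, in mm9, with neither scores nor counts. By the study's methods, paired-end tags were aligned with Bowtie, whereas the submitters' processing notes name BWA. Tags were counted in windows of 1 kb at steps of 200 bp, compared with input by a negative binomial distribution, and enriched windows no more than 1 kb apart were joined. How tags with several alignments were placed for these lists is not given in the sources used here, and duplicated sequence could add or remove peaks. The lists do not show how deeply a library was sequenced, and no interval is given.

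Samples were grouped by their titles, with 6 ChIP libraries used and 4 inputs not analysed. Genes, exons and start sites came from the GENCODE annotation and sequence of NCBIM37 (mm9), and the start site is the 5′ end of the gene record. Any shared base counted as overlap. The work was done in Python 3.11.15 with numpy 2.4.6, and figures were drawn with matplotlib 3.10.9. Interval functions were tested on simulated data. The genes named were the listed genes, Isl2 and Lmx1b, LIM-only and cofactor genes, 4 genes used to check labels, and genes overlapping a window or a peak in it, with members set beside their closest relatives. The members and lists were chosen with earlier results of these data known. With 1 library per cell type and target no test was made, and counts stand beside the share over all 22350 protein-coding genes. Alternatives were peaks of at least 2 kb, peaks within 3 kb merged, other flanks, starts of any transcript and starts within 1 kb of a peak.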

Additional observations from a re-analysis of the deposited data

How the results depend on the processing

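No paired analysis was possible because no test was made, with 1 library per cell type and target. Of 160 counts and sums recomputed under other settings, 143 stayed within 1.5 times their value, including every sum of kb and every count of windows with a peak. Of 300 covered shares of single windows, 70 moved further, mostly with the flank that sets the window's length, and the shares printed hold for 10 kb only. The number of the 10 start sites in NSC H3K27me3 peaks rose from 4 to 7 with the start of any annotated transcript and to 7 with starts within 1 kb of a peak. With starts within 1 kb, the start sites that kept H3K27me3 in NSCs went from 4 to 7 and those that lost it from 3 to 1. Isl2 and Lmx1b had 1 start site in a peak and 2 with the start of any transcript in the ESC Ring1b, Cbx2, Ezh2 and H3K27me3 and NSC Ring1b lists, and 2 with starts within 1 kb in the ESC Ring1b, Ezh2 and H3K27me3 lists. For LIM-only genes, peaks of at least 2 kb lowered the ESC Ring1b count from 2 to 1 and the Ezh2 count from 1 to 0, and any transcript raised the Ezh2 and H3K27me3 counts from 1 to 2. For cofactors, starts within 1 kb raised the ESC Ring1b count from 0 to 2. In these cases the setting redraws the starts or peaks that count.

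Differences in covered kb (NSC minus ESC) were recomputed under settings added after the data were seen, and 7 of 100 turned in sign, all of H3K27me3, while 16 others moved by over 1.5 times. That of Lhx1 went from -1.60 kb to 0.400 kb with peaks within 3 kb merged and 1.20 kb in the gene body alone. That of Lhx5 went from 0.800 kb to -0.800 kb with peaks of at least 2 kb, -1.40 kb in the gene body alone and -0.894 kb with a flank of 5 kb. That of Lhx8 went from 0.200 kb to -0.200 kb in the gene body alone, and that of Lmx1a from 0.200 kb to -1.20 kb with peaks of at least 2 kb. Peaks carry no height and depth is unknown, so a short gap between a start site and a peak cannot be told from a window just under the threshold.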
